A study of Mus musculus with 14 samples.

Results

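The CC chemokines are small secreted proteins that attract leukocytes, and their expression was followed here in fibroblasts that differed in the NF-κB subunit p65. The 9 genes described are *Ccl2*, *Ccl3*, *Ccl4*, *Ccl5*, *Ccl7*, *Ccl8*, *Ccl9*, *Ccl11* and *Ccl20*, taken by name. The array carried 11 probes for them among 41174 probes other than controls, with 2 probes each for *Ccl5* and *Ccl7*. Tests were run at the 22172 probes that 1 group or more had well above background on all its arrays, and 10 of the 11 were among them. *Ccl11* had no tested probe, so that comparisons cover 8 genes.

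CC chemokines carry adjacent cysteines near their amino terminus and act through G protein-coupled receptors on the cells they recruit. Fibroblasts and other stromal cells make them at sites of injury and infection, where they draw in monocytes, T cells, dendritic cells and eosinophils. TNFα releases NF-κB dimers, many of which contain p65, from inhibitor proteins in the cytoplasm, and several CC chemokine genes are known targets of these dimers.

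RNA came from *p65*(-/-) mouse embryonic fibroblasts (MEFs) that had received a lentivirus with wild type p65, with an acetylation-deficient p65 or with the empty vector pTV. KTR carries arginine in place of lysines 310, 314 and 315, and K314/315R in place of lysines 314 and 315. All lines were blasticidin-selected pools that lack the p65 of the parental genome. The wild type, KTR and K314/315R lines carry myc-tagged p65 from the vector and the pTV line carries none, and all were starved overnight before the experiment. Wild type, KTR and pTV cells were measured on 3 arrays each and K314/315R cells on 2 arrays after 3 h of mouse TNFα at 30 ng/ml. A further 3 arrays were made of unstimulated wild type cells (0 h). Replicates were cultures isolated on different days, and no independently made pools of a line are described. The p-values therefore measure the spread between cultures. Between lines, a difference between pools cannot be told from an effect of p65 or of its lysines. Wild type, KTR and pTV arrays shared slides 1 to 3, with 1 array of each group on each slide, whereas both K314/315R arrays lay alone on slide 4, so that slide and cell line cannot be told apart for that mutant.

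Signals are on the log2 scale, with 0 at the 75th percentile of each array, which was 967 to 1442 intensity units. On an array, 49.9% to 57.7% of the spots were well above background. All 12 fibroblast markers examined were well above background on every wild type, K314/315R and pTV array and 10 of 12 on every KTR array. Their levels were not all alike. The mean of *Pdgfrb* was 5.13 in wild type cells at 3 h and 3.14 in pTV cells, and that of *Thy1* 0.72 and 1.91. Why these markers differed was not tested. Of 12 macrophage markers, 7 were well above background on no array, among them *Ptprc*, *Emr1*, *Itgam* and *Tyrobp*. *Csf1r* was well above background on 2 of 3 KTR arrays and on every array of the other groups, and *Mpeg1* on every wild type array. The summed macrophage marker signal (as a multiple of the 75th percentile) was 0.272 to 0.386 in wild type cells at 3 h and 0.263 to 0.312 in pTV cells. Of the lymphocyte, endothelial and epithelial markers, 2 of 8, 5 of 6 and 3 of 6 were well above background on no array. The lymphocyte markers *Cd3e* and *Lck* and the epithelial marker *Krt8* were well above background on all arrays. Epithelial *Krt18* had a mean of −5.46 in wild type cells at 3 h (1 of 3 arrays well above background) and of −2.94 in pTV cells (3 of 3). *Rela*, which encodes p65, had a mean log2 signal of 1.53 in wild type cells at 3 h and of 1.18 in pTV cells at its brighter probe (adjusted p = 0.213). Whether this probe reads the disrupted transcript, the introduced one or both was not stated, so that it does not check the labels.

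On mouse chromosome 11 in the RefSeq annotation (GRCm38.p6), *Ccl2*, *Ccl7* and *Ccl11* are consecutive protein-coding genes, *Ccl8* follows after *Ccl12*, *Ccl5* is next to *Ccl9*, and *Ccl3* is next to *Ccl4*. *Ccl20* lies on chromosome 1. RefSeq promoter sequences, from 250 bases before to 50 bases after the start site, were at hand for 4 of the 9 genes (*Ccl3*, *Ccl8*, *Ccl9* and *Ccl20*). They were searched on both strands for the NF-κB consensus, and 2 of the 4 held a match (*Ccl9* and *Ccl20*), against 8.46% of 32851 promoters of the same length. The matches are shown because the genes that bear them were both called higher with p65 and with TNFα, as was *Ccl3*, which held no match. Capitals mark the match, which reads as the consensus on the opposite strand, and the stretches end before the start site.
*Ccl20* promoter, GRCm38.p6 chr1:83116651-83116730, plus strand: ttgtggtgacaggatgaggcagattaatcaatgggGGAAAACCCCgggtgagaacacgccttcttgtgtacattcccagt
*Ccl9* promoter, GRCm38.p6 chr11:83578637-83578706, minus strand: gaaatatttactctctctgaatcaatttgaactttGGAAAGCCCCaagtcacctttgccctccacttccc
The *Ccl20* match began 80 bases and the *Ccl9* match 35 bases before the start site. The kB-like runs GGANTTTCC and GGAATTTCC (the first includes the second) were present in 1.25% and 0.317% of all promoters and in none of the 4. The AP-1 element TGACTCA, whose opposite strand reads TGAGTCA, was present in 5.2% of all promoters and in none of the 4. These matches describe letters in a window and not binding.

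The first comparison asked which CC chemokines differed between TNFα-treated cells with and without p65. Wild type cells exceeded pTV cells at all 8 tested genes (limma, over 2-fold with a Benjamini-Hochberg adjusted p under 0.05), whereas 3.59% of all 22172 tested probes were called higher and 1.46% lower. The median log2 fold change of the 8 genes was 3.61, and that of all tested probes −0.03. The former is not wholly measured, since it uses the fitted 3.41 of *Ccl4*, a gene without a measured pTV signal. Every wild type array lay above every pTV array at each of the 8 genes, which was the case for 16.2% of all tested probes. *Ccl4*, *Ccl8* and *Ccl20* were well above background on no pTV array, and *Ccl3* on 1 of 3. The filter admitted these genes through groups with p65, so that they could hardly be called lower in wild type cells. The counts of 8 and the median of 3.61 share this limit. When a measured signal was required on each of the 14 arrays, 4 members were left, and all 4 were called. In cultures measured in bulk, fewer expressing cells and less RNA per cell cannot be told apart.

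*Ccl20*, the ligand of CCR6 that attracts dendritic cells and lymphocytes, differed most. Its log2 signal was 1.64, 1.66 and 1.49 on the wild type arrays and −6.62, −6.40 and −6.37 on the pTV arrays. No pTV array was well above background at this probe, and the pTV values are therefore only bounds. In such cases the bright mean was divided by the mean detection limit of the dim arrays, and the quotient is written "at least". The detection limit was the dimmest signal of an array that was still well above background, or the signal of the probe itself where that was higher. The limit of a single probe can lie higher, so that the bounds are approximate. *Ccl8* on pTV replicate 1 was not well above background at −4.41, where the dimmest such signal of the array was −4.73. *Ccl20* was at least 81.8-fold higher in wild type cells (adjusted p = 1.45e-10). Here and below, an adjusted p beside a bound tests the fitted fold (266 for *Ccl20*) and not the bound. The fitted fold uses the signals that were below measurement.

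*Ccl2*, *Ccl7* and *Ccl8* belong to the monocyte chemoattractant proteins, of which the products of *Ccl2* and *Ccl7* recruit monocytes through CCR2. *Ccl8* was not well above background on any pTV array. It had −0.06, −0.38 and −0.63 in wild type cells and −4.41, −5.12 and −4.75 in pTV cells, and was at least 18.6-fold higher in wild type cells (adjusted p = 3.04e-08). *Ccl7* was measured in both lines, at 5.02, 4.90 and 4.87 in wild type and 2.98, 2.79 and 3.00 in pTV cells. The arrays of each line agreed closely and the lines did not overlap. *Ccl7* was 4.01-fold higher in wild type cells (log2 fold change 2.00 ± 0.11, SE, adjusted p = 1.4e-07), and its second probe gave 4.04-fold (adjusted p = 5.12e-06).

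*Ccl2* showed the smallest fold of the group. Its log2 signal was 9.02, 8.62 and 8.61 in wild type and 8.12, 7.49 and 7.41 in pTV cells. Replicate 1 was the highest array in both lines. The fold was 2.11 (log2 fold change 1.08 ± 0.19, SE, adjusted p = 0.00182), just past the 2-fold limit, and the call was lost without wild type replicate 1 (0.95), without pTV replicate 2 (0.99) and without pTV replicate 3 (0.95). On slides 1, 2 and 3 the log2 difference was 0.90, 1.13 and 1.21.

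The *Ccl2* probe was printed in 10 spots, and some were saturated in the scan on 4 of the 14 arrays. All 10 were saturated on KTR replicate 1, 9 on wild type replicate 1 at 3 h, 6 on K314/315R replicate 1 and 1 on KTR replicate 3. No *Ccl2* spot was saturated in pTV cells or in wild type cells at 0 h. Saturated spots were kept at their values, so that the levels on those arrays are lower bounds. Without these 4 arrays, a choice made after the data were seen, the difference between wild type and pTV was 0.95 on the log2 scale (adjusted p = 0.0313), under the 2-fold limit.

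**Figure D1:**
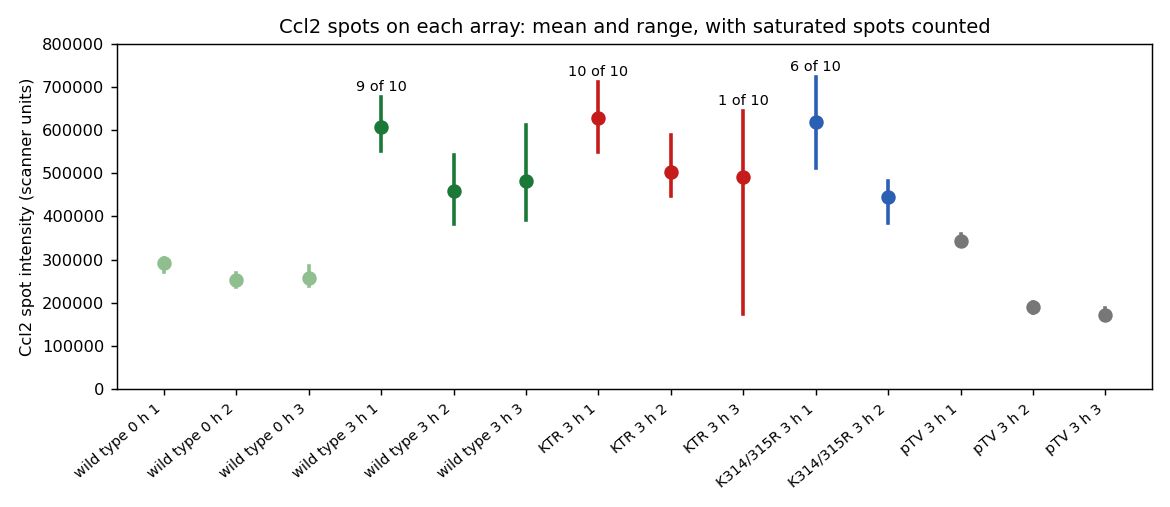
Intensity of the *Ccl2* spots on each of the 14 arrays, before scaling between arrays. Points are the mean and vertical lines the range from the lowest to the highest used spot, and the text above a line counts saturated spots, which were found on 4 arrays, all of them of p65-expressing cells after 3 h of TNFα.

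*Ccl3*, *Ccl4* and *Ccl9* encode macrophage inflammatory proteins, which attract monocytes and other leukocytes. *Ccl3* had 0.24, −0.22 and 0.16 in wild type and −4.52, −5.56 and −4.05 in pTV cells, where 1 of the 3 arrays was well above background. The fitted fold of 27.3 (log2 fold change 4.77 ± 0.44, SE, adjusted p = 9.94e-06) thus rests in part on pTV signals below the limit of measurement, and with those arrays set at their detection limit the fold was at least 21.7. *Ccl4* was dim in all lines, at −2.73, −3.12 and −2.56 in wild type and −6.01, −6.57 and −6.07 in pTV cells. No pTV array was well above background for *Ccl4*, and the fold was at least 3.88 (adjusted p = 0.000285). *Ccl9* had 3.25, 2.92 and 3.31 in wild type and 0.86, 0.47 and 1.08 in pTV cells. Its fold was 5.12 (log2 fold change 2.36 ± 0.20, SE, adjusted p = 6.44e-06), and every array of both lines was well above background.

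*Ccl5*, also named RANTES, recruits T cells and monocytes. Its brighter probe had 8.05, 7.62 and 7.91 in wild type and 4.08, 3.65 and 4.42 in pTV cells, so that the transcript was reduced but measured on each pTV array. The fold was 14.03 (log2 fold change 3.81 ± 0.19, SE, adjusted p = 8.76e-08), and 20.5 at the second probe (adjusted p = 1.33e-07). *Ccl11*, the eosinophil attractant eotaxin, was well above background on 1 wild type array at 3 h (replicate 3, −2.46) and on 1 K314/315R array (replicate 1, −4.77), and on no other array. The other wild type arrays at 3 h had −4.93 and −5.26 and the pTV arrays −6.88, −6.74 and −7.07, all below the limit of measurement.

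**Figure D2:**
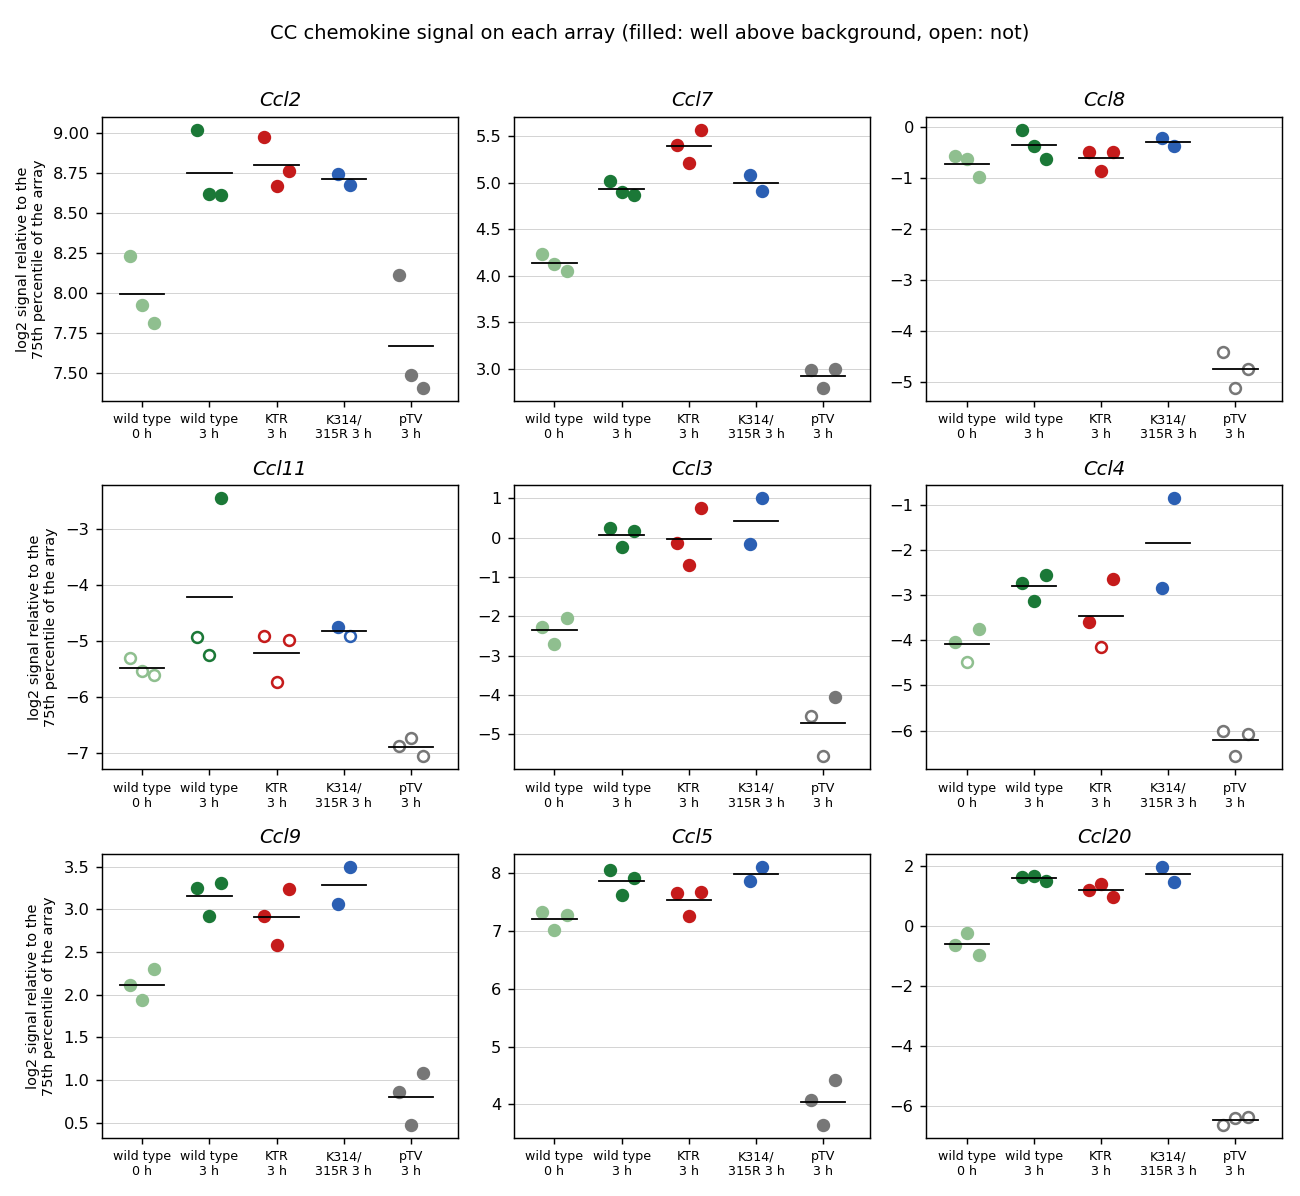
Log2 signal of the 9 CC chemokine genes on each of the 14 arrays, with 0 at the 75th percentile of an array and with its own vertical scale for each gene. Points are arrays (filled if well above background), ordered by replicate number, and horizontal lines are group means. The pTV mean is the lowest at every gene, and *Ccl8*, *Ccl4*, *Ccl11* and *Ccl20* were well above background on none of them.

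Background correction by the normexp model, which starts from the mean spot signal and the local background and leaves out the spatial correction of the image software, gave fewer calls over all tested probes (260 higher and 66 lower, against 795 and 323). With it 6 of the 8 genes were called against pTV. The calls lost were those of *Ccl2* (log2 fold change 0.90, adjusted p = 0.23) and of *Ccl4* (1.20, adjusted p = 1).

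The response to TNFα was measured in wild type cells, 3 h against 0 h. *Ccl3*, *Ccl9* and *Ccl20*, 3 of 8 genes, were called higher after TNFα (over 1.8-fold, adjusted p under 0.05), where 1.12% of all tested probes were. The median log2 fold change of the 8 genes was 0.92, against −0.04 for all tested probes. At 7 of the 8 genes every array at 3 h lay above every array at 0 h, which was so for 13.5% of all tested probes. This comparison shares the wild type arrays at 3 h with the comparison against pTV.

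Before TNFα, *Ccl3* had −2.26, −2.71 and −2.04, lower than every array at 3 h. It was 5.27-fold higher at 3 h (log2 fold change 2.40 ± 0.44, SE, adjusted p = 0.00828). *Ccl20* had −0.64, −0.23 and −0.96 at 0 h and was 4.60-fold higher at 3 h (log2 fold change 2.20 ± 0.19, SE, adjusted p = 5.52e-05). Both genes were thus measurable on every unstimulated array. *Ccl9* had 2.11, 1.93 and 2.30 at 0 h and was 2.07-fold higher at 3 h (log2 fold change 1.05 ± 0.20, SE, adjusted p = 0.0122). The call of *Ccl9* was lost without replicate 1 at 3 h (adjusted p = 0.051), without replicate 3 at 3 h (0.0559) and without replicate 2 at 0 h (0.0565).

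At the other 5 genes the change did not pass both limits. *Ccl7* had 4.23, 4.13 and 4.05 at 0 h and was 1.73-fold higher at 3 h (adjusted p = 0.0014), and *Ccl2* had 8.23, 7.93 and 7.82 and was 1.69-fold higher (adjusted p = 0.0421). Both passed the limit on p but not the 1.8-fold limit, and neither overlapped between the time points. *Ccl4*, well above background on 2 of 3 arrays at 0 h (−4.04, −4.49 and −3.75), gave 2.45-fold with an adjusted p of 0.164. With slide as a fixed block over slides 1 to 3, *Ccl4* was called as well (adjusted p = 0.00316), which made 4 of 8 genes.

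*Ccl5* had 7.32, 7.01 and 7.27 at 0 h and gave 1.58-fold at the brighter probe (adjusted p = 0.0846) and 1.86-fold at the second (adjusted p = 0.0524). The arrays of the time points did not overlap at either probe. *Ccl8* had −0.57, −0.64 and −0.99 at 0 h, which overlapped with the 3 h arrays, and gave 1.30-fold (adjusted p = 0.378, 95% interval of the log2 fold change −0.06 to 0.81). Within each slide all 8 genes were higher at 3 h, by 2.20 to 2.50 on the log2 scale for *Ccl3*, 1.88 to 2.45 for *Ccl20*, 0.99 to 1.14 for *Ccl9* and 0.26 to 0.51 for *Ccl8*. It was not counted how many of all tested probes were higher within each slide. With the normexp correction the TNFα calls were lost: 0 of 8 genes passed, with log2 fold changes of 1.99 for *Ccl3* (adjusted p = 0.344), 1.87 for *Ccl20* (adjusted p = 0.45) and 0.77 for *Ccl9* (adjusted p = 0.545), and the calls over all probes fell from 249 higher and 94 lower to 17 and 6.

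**Figure D3:**
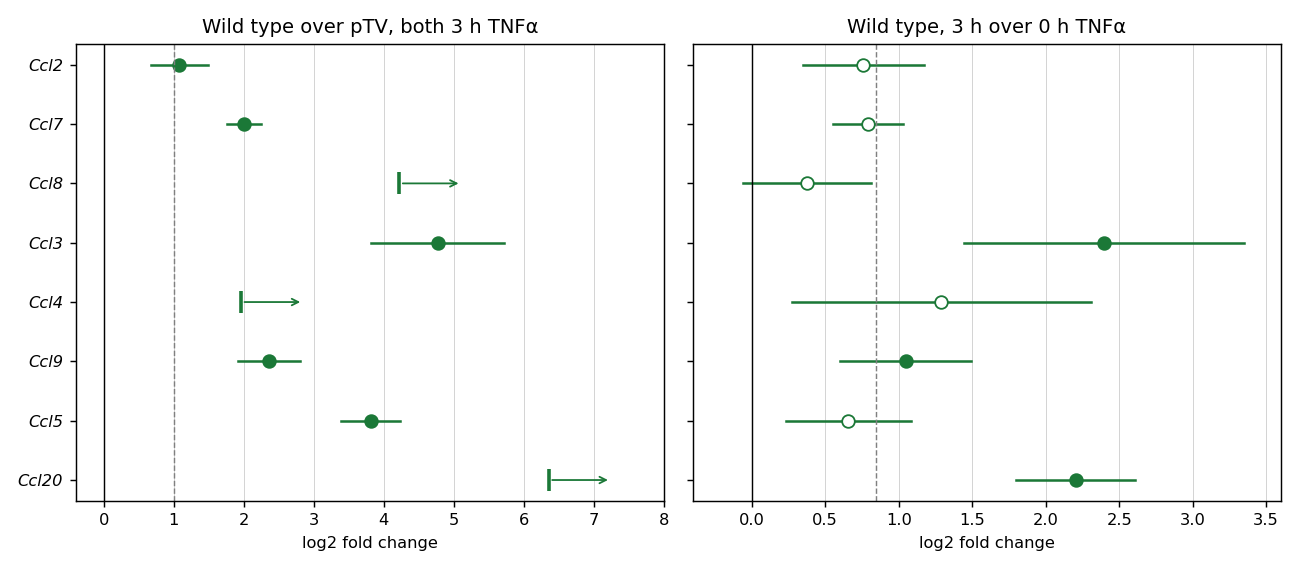
Log2 fold change of the 8 tested genes in wild type over pTV cells after TNFα (left) and in wild type cells at 3 h over 0 h (right), on scales of different length. Points with lines are limma estimates with 95% intervals, filled where called, ticks with arrows are lower bounds, and dashed lines are the fold limits of 2 and 1.8. All 8 genes were called on the left and *Ccl3*, *Ccl9* and *Ccl20* on the right.

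Unstimulated wild type cells and TNFα-treated pTV cells can be read side by side, with no test. *Ccl5* was at 7.20 ± 0.17 (SD, n = 3) without TNFα and at 4.05 ± 0.39 (SD, n = 3) in pTV cells with TNFα. *Ccl8* was at −0.73 ± 0.23 (SD, n = 3) in the former and below measurement in the latter, and *Ccl20* at −0.61 ± 0.37 (SD, n = 3) and below measurement. The same order, with higher means in unstimulated wild type cells, was found at the other tested genes. *Ccl7* was at 4.14 ± 0.09 and 2.93 ± 0.11 (SD, n = 3 each) and *Ccl9* at 2.11 ± 0.18 and 0.80 ± 0.31 (SD, n = 3 each). *Ccl3* was at −2.34 ± 0.34 (SD, n = 3) without TNFα and well above background on 1 of 3 pTV arrays, and *Ccl4* was well above background on 2 of 3 arrays at 0 h and on no pTV array. *Ccl2* was at 7.99 ± 0.22 (SD, n = 3) at 0 h and 7.67 ± 0.39 (SD, n = 3) in pTV cells, and its arrays overlapped between these groups.

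The next comparison asked whether loss of the lysines at 310, 314 and 315 altered these genes. Between KTR and wild type cells at 3 h, limma called 0 of 8 genes, and over all tested probes 0.0271% were called higher and 0.14% lower. At an unadjusted p under 0.05 there were 2 member genes, *Ccl7* and *Ccl20*, neither past 1.8-fold. How many of all tested probes passed this unadjusted limit was not counted, so that the 2 cannot be set against them. The mean was lower in KTR at 6 of 8 genes, although *Ccl5* and *Ccl9* turned to log2 fold changes of 0.05 and 0.03 with the normexp correction, and it was lower at 36.6% of all tested probes.

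*Ccl7* was the gene at which every KTR array lay higher. Its log2 signal was 5.41, 5.21 and 5.57 in KTR, each above every wild type array (4.87 to 5.02). The log2 fold change was 0.47 ± 0.11 (SE, 1.38-fold, 95% interval 0.23 to 0.70), with an adjusted p of 0.141, and within slides 1, 2 and 3 it was 0.39, 0.32 and 0.70. The second probe had 5.11, 4.92 and 5.01 in KTR and 4.83, 4.49 and 4.36 in wild type cells, again without overlap (0.45 ± 0.17, SE, adjusted p = 0.414). With the replicate number, which is the slide here, as a block, the adjusted p of the first probe was 0.0384, still under 1.8-fold. Of all tested probes, 9.49% had every KTR array above every wild type array.

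*Ccl20* had 1.18, 1.39 and 0.97 in KTR, each below every wild type array (1.49 to 1.66), as 5.24% of all tested probes did. The log2 fold change was −0.41 ± 0.19 (SE, adjusted p = 0.536), and −0.45, −0.27 and −0.52 within slides 1, 2 and 3. *Ccl5* had 7.66, 7.25 and 7.67 in KTR, overlapping with wild type, and was lower within each slide, by −0.39, −0.37 and −0.23 (adjusted p = 0.664). Its second probe gave −0.49 ± 0.23 (SE, adjusted p = 0.563). *Ccl9* (2.92, 2.58 and 3.23) and *Ccl4* (−3.59, −4.15 and −2.65, with 2 of 3 arrays well above background) were also lower within each slide and overlapped with wild type.

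*Ccl3* and *Ccl8* differed in direction between slides. *Ccl3* had −0.14, −0.69 and 0.75 in KTR, which is −0.38 and −0.47 against wild type on slides 1 and 2 and 0.59 on slide 3 (log2 fold change −0.08, 95% interval −1.03 to 0.87). *Ccl8* had −0.50, −0.86 and −0.50 (log2 fold change −0.26, 95% interval −0.70 to 0.17). *Ccl2* had 8.98, 8.67 and 8.76, close to the wild type arrays (log2 fold change 0.05, 95% interval −0.36 to 0.46), with saturated spots on 2 of the 3 KTR arrays. On KTR replicate 3 the *Ccl2* spots spread more than on any other array (SD 0.54 over spots on the log2 scale, against 0.03 to 0.21 elsewhere).

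In K314/315R cells, limma again called 0 of 8 genes against wild type at 3 h, where 0.167% of all tested probes were called higher and 1.03% lower, and at an unadjusted p under 0.05 the count was also 0. The groups overlapped at all 8 genes, while 19% of all tested probes had every K314/315R array above and 17.2% every one below wild type. The log2 fold changes lay between −0.04 (*Ccl2*) and 0.95 (*Ccl4*). When arrays were scaled to their median in place of the 75th percentile, the median log2 fold change of all tested probes moved from 0.02 to 0.29 and the calls over all probes from 37 higher and 228 lower to 242 and 127, and with quantile normalization they were 48 and 66. Without wild type replicate 1, 2 and 3 the calls over all probes were 23 and 97, 4 and 25, and 18 and 176. With only the 2 groups compared they were 3 and 6. The member count stayed at 0 under all of these.

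*Ccl3* and *Ccl4* spread widely between the K314/315R arrays. *Ccl4* had −2.85 on replicate 1 and −0.86 on replicate 2, and *Ccl3* had −0.16 and 1.00. Replicate 2 was above every wild type array at both genes and replicate 1 was not. The log2 fold changes of 0.95 ± 0.52 (SE, adjusted p = 0.384) for *Ccl4* and 0.36 ± 0.49 (SE, adjusted p = 0.76) for *Ccl3* rested on replicate 2. Without it they were −0.05 and −0.22.

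At the remaining genes K314/315R lay near wild type. *Ccl20* had 1.96 and 1.46, *Ccl5* 7.86 and 8.11, and *Ccl9* 3.07 and 3.50, with log2 fold changes of 0.11 to 0.13 and intervals no wider than −0.38 to 0.62. *Ccl7* had 5.08 and 4.91 (log2 fold change 0.06, 95% interval −0.20 to 0.33), and *Ccl8* −0.22 and −0.38 (0.06, 95% interval −0.43 to 0.54). *Ccl2* had 8.74 and 8.68 (−0.04, 95% interval −0.50 to 0.42), with saturated spots on K314/315R replicate 1 and on wild type replicate 1. The sign of this difference turned with normexp (0.20), with median scaling (0.23) and without the saturated arrays (0.060).

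**Figure D4:**
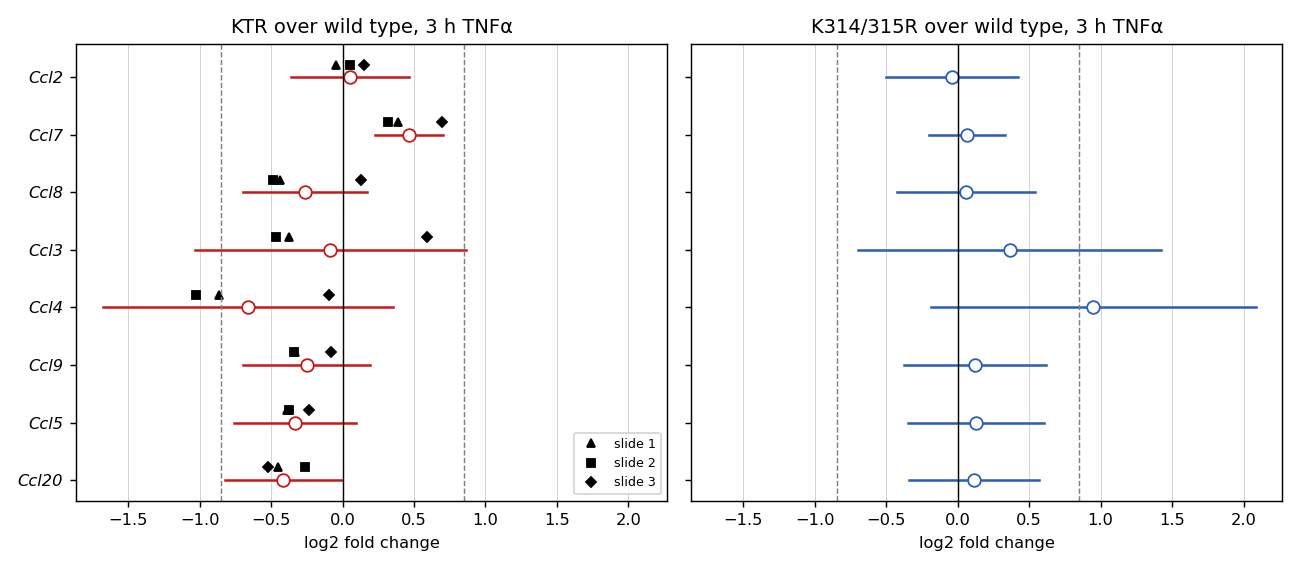
Log2 fold change of the 8 tested genes in KTR over wild type cells (left) and K314/315R over wild type cells (right), all after 3 h of TNFα. Circles with lines are limma estimates with 95% intervals, black symbols the difference between the KTR and the wild type array of the same slide, and dashed lines the 1.8-fold limits. No gene was called in either mutant, and *Ccl7* in KTR lies above 0 on each slide.

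Both mutants were then set against pTV. All 8 genes were higher in KTR than in pTV cells, where 3.32% of all tested probes were called higher and 1.36% lower, and all 8 were higher in K314/315R than in pTV cells, where 4.18% were called higher and 4.68% lower. The median log2 fold change of the 8 genes was 3.11 in KTR and 4.15 in K314/315R. Both medians use the fitted *Ccl4* values of 2.75 and 4.36, for which only bounds of 1.30 and 2.91 were measured. They therefore do not compare the mutants. The limit set by the filter in wild type over pTV holds here as well. *Ccl20* was at least 61.4-fold higher in KTR and at least 88.5-fold higher in K314/315R (adjusted p = 1.88e-10 and 4.23e-10). *Ccl8* was at least 15.5-fold and at least 19.4-fold higher, and *Ccl4* at least 2.46-fold and at least 7.49-fold. The *Ccl4* bound in K314/315R rests on a mean of unlike arrays (−2.85 on replicate 1 and −0.86 on replicate 2). That in KTR uses a mean with 1 array not well above background (replicate 2, −4.15). *Ccl7* was 5.55-fold higher in KTR (adjusted p = 3.27e-08) and 4.19-fold higher in K314/315R (adjusted p = 3.82e-07). *Ccl2* was again nearest to the limit, at 2.19-fold in KTR and 2.06-fold in K314/315R. Its call in K314/315R was lost without pTV replicate 2 (log2 fold change 0.95), without pTV replicate 3 (0.91), with the replicate block (0.96) and with normexp (adjusted p = 0.114). With normexp the *Ccl4* calls were also lost, in KTR (0.40, adjusted p = 0.882) and in K314/315R (1.41, adjusted p = 0.609). These comparisons share the pTV arrays with that of wild type.

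Between the mutants, KTR over K314/315R, limma called 0 of 8 genes, where 2.06% of all tested probes were called higher and 0.492% lower. These 456 and 109 calls fell to 0 and 0 with the normexp correction and with only the 2 groups compared. Every KTR array lay below every K314/315R array at *Ccl5*, *Ccl8* and *Ccl20* (12.5% of all tested probes) and above at *Ccl7* (18.8%). At an unadjusted p under 0.05 there were 3 member genes, *Ccl4* (log2 fold change −1.61, adjusted p = 0.0966), *Ccl7* (0.40, adjusted p = 0.0775) and *Ccl20* (−0.53, adjusted p = 0.167), of which *Ccl4* was past 1.8-fold. Here too, the share of all tested probes at the unadjusted limit was not counted. *Ccl4* was called without K314/315R replicate 1 (−2.60, adjusted p = 0.0254) and with the replicate block (−1.80, adjusted p = 0.042). This last value pairs arrays of different slides.

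The arrays also held 11 of 15 other CC chemokine names searched for, of which *Ccl17*, *Ccl19*, *Ccl25* and *Ccl27* were tested. In each of the 7 comparisons limma called 0 of these 4. *Ccl17*, a ligand of CCR4, gave 1.90-fold in wild type over pTV cells (adjusted p = 0.000113) and 1.65-fold with TNFα (adjusted p = 0.00321), under the fold limits. It was singled out after its values were seen. At *Ccl25* and *Ccl27* the adjusted p lay above 0.4 in both comparisons.

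Of 16 receptor and decoy receptor genes for CC chemokines, 3 were tested (*Ccr3*, *Ccr6* and *Ccrl2*). *Ccrl2*, an atypical chemokine receptor, exceeded its pTV level at least 4.76-fold in wild type cells (adjusted p = 1.6e-05) and was higher at 3 h than at 0 h (adjusted p = 0.00125). Since 1 of 3 arrays was well above background at 0 h, its fitted fold of 5.90 is uncertain, and with the other arrays set at their detection limit the fold was at least 4.15. It was called in neither mutant against wild type. *Ccr6*, the receptor of CCL20, was dim throughout, with a mean of −4.20 in wild type cells at 3 h. It was well above background on 2 of 3 pTV arrays and on no K314/315R array, and although the fit gave an adjusted p of 0.0215 there, the bound of at least 1.41-fold lower in K314/315R does not reach the 2-fold limit.

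The pathway from the TNF receptor to NF-κB was represented by 22 genes, 21 of them tested. In wild type over pTV cells 8 were called higher and 0 lower, where 3.59% and 1.46% of all tested probes were. With TNFα 5 were called higher and 0 lower, where 1.12% and 0.424% of all tested probes were. *Tnfaip3*, an inhibitor of the pathway, was 11.4-fold higher in the former comparison (adjusted p = 1.18e-08) and 3.83-fold higher in the latter (adjusted p = 1.68e-05). *Nfkbie*, which encodes the inhibitor IκBε, was 4.99-fold and 2.77-fold higher in the same comparisons (adjusted p = 1.28e-05 and 0.00231). *Tnfrsf1b*, a TNF receptor, was 3.13-fold higher in wild type cells than in those with pTV (adjusted p = 1e-05). *Nfkbie* was also the gene of this list that was called lower in KTR than in wild type cells, at 0.422-fold (adjusted p = 0.0465), and none was called in K314/315R against wild type.

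Over the 14 arrays, the log2 signals of the 8 genes correlated with each other with Pearson's r between 0.769 and 0.992. These values describe arrays that share the 5 groups, and the difference between pTV and all other groups is part of each of them. *Ccl3* and *Ccl9* were each other's most similar gene among 21589 probes with a value on all arrays (r = 0.992), followed in both cases by *Nos2*. *Ccl20* was most like *Icam1* (0.997), *Fas* (0.995) and *Ptx3* (0.994), and *Ccl8* most like *C3* (0.996) and *Saa3* (0.994). *Ccl5* was most like *Sgk3* (0.996), *Ccl4* most like *Dgat2* (0.983) and *Ccl2* most like *6330412F12Rik* (0.973). For *Ccl7*, the nearest probe was named *AK161748* (0.985).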

How the data were processed

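For each of the 14 arrays (Agilent Whole Mouse Genome, 1 colour, Cy3) the authors deposited the output of Feature Extraction (9.1.1.1 on slides 1 to 3 and 9.1.3.1 on slide 4), with an intensity per spot corrected for background and spatial trend but not scaled between arrays. A second deposited data set, of normalized intensities, was used as an alternative. Per array it equals the mean probe intensity times a constant (0.837 to 1.20, within 1% for at least 99.65% of probes). Its column medians were 64.5 to 85.5.

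Outlier spots (1 to 326 per array) were left out and spots of a probe averaged. The log2 of the 75th percentile of an array was subtracted from its log2 values. All 14 arrays entered 1 limma fit over 5 groups (R 4.3.3, limma 3.58.1 and, for reading, data.table version 1.17.8), two-sided, with Benjamini-Hochberg adjustment over 22172 probes. For 5 of these, none of a member, no value was left in some group. A gene was called past 2-fold against pTV and past 1.8-fold otherwise, at an adjusted p under 0.05. The paper used 1.8-fold for its gene tables and 2-fold for wild type over pTV, and 2-fold was extended here to the mutants over pTV. The steps were tested on simulated data. The number of arrays limits the precision.

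All 9 members are named, with the tested probe of highest mean standing for the gene. From the other lists, genes called in the first 4 comparisons are named, at most 5 per list, and for each member the most similar of 3 ranked genes. *Ccl17*, *Ccl19*, *Ccl25*, *Ccl27*, *Ccr3* and *Ccr6* fall outside this rule and were named after their values were seen, as was *Rela* to check the labels. The similar genes of lower rank that are named (*Nos2*, *Fas*, *Ptx3* and *Saa3*) and the named cell type markers fall outside the rule as well. The members, lists and tests were chosen with earlier results of these data known. Gene names come from the array files. Slide, known from the file headers, equals the replicate number on slides 1 to 3. There the deviations from group means of the 18 same-number pairs of arrays correlated with r from 0.308 to 0.613 and those of the 36 other pairs from −0.510 to 0.0954, so that the numbers pair the arrays. For K314/315R, on slide 4, same-number pairs had −0.101 to 0.411, which settles no pairing. Where a group was measured on some arrays only, bounds with its other arrays at the detection limit were added after the data were seen. Alternatives concerned background correction, scaling, filters, blocks, limits and leaving out each array.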

Additional observations from a re-analysis of the deposited data

How the results depend on the processing

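Across the alternatives and left-out arrays, 1520 of the single-gene values kept their direction and their side of the limits, 19 lost a call, 10 gained one and 23 turned in direction, the last at differences that were not called in the first place. The count of genes called in wild type over pTV stayed between 6 and 9 except with probes well above background on all arrays, a filter that by its construction keeps 4 of the members: it gave 4 calls in wild type, 4 in KTR and 4 in K314/315R over pTV, and 1 with TNFα. With no filter, *Ccl11* joined the calls in wild type over pTV (log2 fold change 2.68, adjusted p = 0.0151), from signals mostly below background. The TNFα count of 3 became 0 with normexp and 5 with no limit on the fold. *Ccl4* was the gene that made the count in KTR over K314/315R 1 in place of 0 with median scaling, with the unadjusted p, with the replicate block and without the arrays with a saturated *Ccl2* spot, an alternative added after the data were seen. The last leaves 1 array each of KTR and K314/315R, assumed to vary like the other groups, and *Ccl4* was not well above background on that KTR array, so that its fold there is no measured value. *Ccl2* in KTR over pTV was then at 1.00 (adjusted p = 0.0737). The causes were not tested. With normexp the calls of *Ccl4* in KTR (0.40, adjusted p = 0.882) and in K314/315R over pTV (1.41, adjusted p = 0.609) and of *Ccl2* in K314/315R over pTV (adjusted p = 0.114) were lost.

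With the replicate number as a block, 8 genes were called in wild type over pTV, 3 with TNFα and 0 in KTR over wild type, as without it, and the calls that changed were those of *Ccl4* in KTR over K314/315R and of *Ccl2* in K314/315R over pTV (above). With slide as a random block, the adjusted p of *Ccl7* in KTR over wild type was 0.0294.

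When arrays were left out 1 at a time, the counts ranged from 7 to 8 in wild type over pTV, 2 to 3 with TNFα, 8 to 8 in KTR over pTV, 7 to 8 in K314/315R over pTV, 0 to 0 in either mutant over wild type and 0 to 1 between the mutants (1 without K314/315R replicate 1). Where K314/315R was left with 1 array, that array is assumed to vary like the other groups. In K314/315R over wild type, the log2 fold change then ranged from −0.11 to 0.094 for *Ccl2*, −0.22 to 0.94 for *Ccl3*, −0.047 to 1.94 for *Ccl4*, −0.022 to 0.15 for *Ccl7*, −0.080 to 0.21 for *Ccl8*, −0.096 to 0.34 for *Ccl9* and −0.14 to 0.37 for *Ccl20*. In KTR over wild type it ranged from −0.034 to 0.19 for *Ccl2* and −0.47 to 0.25 for *Ccl3*, and in KTR over K314/315R from −1.03 to 0.13 for *Ccl3*. *Ccl2* in K314/315R over wild type turned to 0.20 with normexp, 0.23 with median scaling and 0.060 without the saturated arrays, and in KTR over K314/315R to −0.23 and −0.0049 under the last 2. *Ccl20* in K314/315R over wild type turned to −0.12 without the saturated arrays, and with normexp *Ccl5* and *Ccl9* in KTR over wild type turned to 0.045 and 0.027. Median scaling moved the median of all tested probes to 0.29 in K314/315R over pTV and to −0.29 in KTR over K314/315R, and the calls there from 926 higher and 1038 lower to 1494 and 509, and from 456 and 109 to 209 and 683. With quantile normalization they were 1028 and 696, and 214 and 185. Dim signals limit *Ccl4* and *Ccl11* most, since fewer of their arrays were well above background.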
